A study of Mus musculus with 3 samples.

Results

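The genes described here adjust the circadian clock without being its core transcription factors: the casein kinases Csnk1d and Csnk1e, the F-box gene Fbxl21, the ubiquitin protease Usp2, Timeless, the kinase Wee1, and the DEC repressors Bhlhe40 and Bhlhe41, which the array design lists under their older names Bhlhb2 and Bhlhb3. These are 8 of the 27975 gene names on the array. Every non-control probe that carried one of them was taken, which gave 17 of the 41174 different probes on the array, each printed as 1 spot. Of these, 15 were well above background in at least 1 genotype on all 3 arrays and were tested, as were 26429 probes in all. One probe of Fbxl21 and one of Bhlhe41 were too dim to be tested, and their signals are given with those genes. No further probe mapped to a member through its accession or a synonym.

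The conditional knockout (cKO) ovaries came from Bmal1fx/fx females whose Cre recombinase was made under control of the Sf-1 promoter, and the control ovaries from Bmal1fx/fx females without Cre, which the labels call wild type. Both groups were C57Bl/6J mice 10 weeks of age, killed at Zeitgeber time 12 on day 3.5 post copulation, and both carried the floxed alleles. On each of 3 two-colour arrays, ovary RNA pooled from 3 cKO females (cy3) met ovary RNA pooled from 3 control females (Cy5). The pools were different on every array, which makes 9 females per genotype. No array had the dyes swapped, so an effect of the dye and an effect of the genotype cannot be told apart in any value below. Sf-1 marks the steroid-producing cells of the gonad, and oocytes, vessels, immune cells and other cells of the ovary would keep an intact Bmal1. The RNA was of whole ovaries, so fewer cells of a type and less RNA per cell cannot be told apart.

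In the clock, BMAL1 and CLOCK bind E-boxes and switch on the Per and Cry genes, whose proteins then repress BMAL1 and CLOCK. Casein kinases 1 delta and 1 epsilon phosphorylate the PER proteins and set how long they last, while the F-box protein FBXL21 attaches ubiquitin to the CRY proteins, and USP2 removes ubiquitin from clock proteins. DEC1 and DEC2, the products of Bhlhe40 and Bhlhe41, compete for E-boxes. Wee1, the kinase that holds back mitosis, and Usp2 are E-box-driven outputs of the clock in mouse liver. In the ovary, clock genes cycle in granulosa, theca and luteal cells.

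Each value below is a log2 ratio of cKO over control on 1 array, with means ± SD over the 3 arrays, unless a processed signal is named. Signals are scanner units after the scanner software's own corrections. They are given for each array and genotype of a probe, and no probe's signal is set against another's. Adjusted p-values are from limma with Benjamini-Hochberg adjustment over all 26429 probes.

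No clock modifier probe passed the threshold of 0.05, 0 of 15, and over all probes 1 passed, or 0.00378%. That probe, A_51_P274436, reads Star, the carrier of cholesterol into mitochondria in steroid-producing cells, which fell to a mean log2 ratio of -4.09 ± 0.13 (adjusted p = 0.0326, n = 3). That call was lost without array 1 or array 2, where 0 probes passed, and 21 probes passed without array 3. The single probe of Arntl, the gene of BMAL1, had log2 ratios of 0.27, 0.13 and -0.24 on arrays 1, 2 and 3 (mean 0.06 ± 0.27, adjusted p = 0.934). It may lie outside the deleted part, in which case it checks nothing. Luteal, granulosa and oocyte markers were well above background in both genotypes on all arrays, in 10 of 10, 12 of 12 and 11 of 11 genes. Between arrays, the log2 ratios over all tested probes had Pearson correlations of 0.597 for arrays 1 and 2, 0.206 for arrays 1 and 3 and -0.0243 for arrays 2 and 3, as a description across probes that share arrays and depth. Arrays 2 and 3 lay on 1 slide and array 1 on another.

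At an unadjusted p under 0.05, 2 of the 15 probes were higher, both of them of Fbxl21, against 5.74% of all probes tested, and 0 of 15 were lower, against 5.84%. The log2 ratio was above 0 on all 3 arrays for 4 of the 15, against 18.1% of all probes, and below 0 on all 3 for 1, against 16.5%. One sign on all 3 arrays was thus seen for 5 of 15, or 33.3%, beside 34.5% of all probes. The clock modifier probes had a median log2 ratio of 0.06, against 0.01 over all probes tested, and a median size of 0.23, against 0.16. Their median SD over the arrays was 0.25, against 0.26. Of the 15 means, 9 were above 0 and 6 below.

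**Figure D1:**
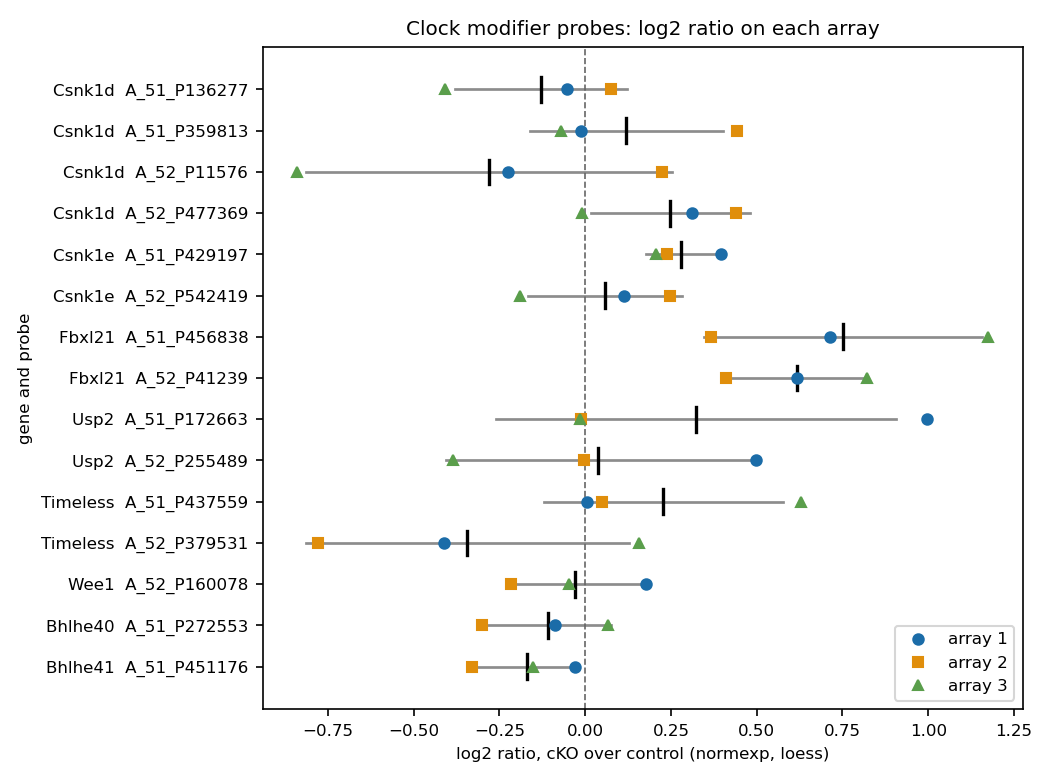
Log2 ratio of cKO over control (horizontal axis) for the 15 tested clock modifier probes (vertical axis), with a symbol for each array, a black bar at the mean and a grey line for ± 1 SD over 3 arrays. Both Fbxl21 probes lie right of 0 on all 3 arrays, with means of 0.75 and 0.62, while Usp2 A_51_P172663 reaches 1.00 on array 1 and lies at -0.01 on arrays 2 and 3.

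Fbxl21 had the highest mean log2 ratios of the clock modifiers. Both tested probes were above 0 on each array, and neither passed the adjusted threshold. FBXL21 is the F-box protein that ubiquitinates CRY proteins in the cytoplasm and, in mouse cells, slows their loss. The gene lies on chromosome 13. The 2 tested probes carry the same RefSeq accession and the third a cDNA accession, and the first 30 of their 60 bases, copied from the deposited array files, show that they are separate measurements of the gene. All bases are in lower case because none is singled out.
Fbxl21 A_51_P456838: gtattagatgtttaatagggtagactacag
Fbxl21 A_52_P41239: ctttggaggaagtttgagtttgagctgaac
Fbxl21 A_52_P101252: gtggaaaaccgtttttaattagtgtgagtc

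Probe A_51_P456838 gave Fbxl21 processed signals of 964, 570 and 1022 in cKO ovaries on arrays 1, 2 and 3, against 364, 317 and 222 in control ovaries. The cKO signal was the higher one on each array. Its log2 ratios were 0.71, 0.37 and 1.17, with a mean of 0.75 ± 0.41 (n = 3), a 1.68-fold difference with a 95% interval of 1.19 to 2.39. The adjusted p was 0.313, and limma's unadjusted p was 0.0132. Of all probes tested, 2.41% had a mean of larger size.

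Probe A_52_P41239 gave Fbxl21 processed signals of 438, 267 and 395 in cKO ovaries, against 267, 183 and 142 in control ovaries. The lowest cKO signal, on array 2, was just below the highest control signal, on array 1, but on each array the cKO signal was the higher one. The log2 ratios of this probe were 0.62, 0.41 and 0.82, with a mean of 0.62 ± 0.21 (n = 3), a 1.53-fold difference with a 95% interval of 1.19 to 1.97. The adjusted p was 0.283, and limma's unadjusted p was 0.00779. Of all probes tested, 4.37% had a mean of larger size. Both probes had their highest ratio on array 3 and their lowest on array 2, and they differed from each other by 0.10, 0.04 and 0.35 on arrays 1, 2 and 3.

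The size of the Fbxl21 difference depended on the scale. In the scanner software's processed ratios, which carry no offset, A_51_P456838 had log2 ratios of 1.41, 0.85 and 2.20 and A_52_P41239 of 0.71, 0.54 and 1.48. Their means were 1.48 and 0.91, and neither probe passed the threshold on that scale. The third probe, A_52_P101252, was well above background in cKO ovaries on 2 arrays and in control ovaries on 0. It gave 31.4, 26.9 and 5.28 units in cKO ovaries, against 10.9, 11.4 and 7.63 units in control ovaries. Since no control signal and not every cKO signal was measured above background, no fold is given for it.

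The other ubiquitin ligases and proteases of the clock, 16 genes that include the ligase subunits Skp1 and Cul1, Btrc, Fbxw11, Huwe1 and Usp7, had 0 called and a median of -0.03, against 0.01 over all probes. At an unadjusted p under 0.05, 0 of the 16 were higher and 0 lower, against 5.74% and 5.84% of all probes tested. Skp1 and Usp7 had the lowest means, at -0.33 ± 0.20 and -0.37 ± 0.25 (adjusted p = 0.460 and 0.449). These 2 genes were below 0 on all 3 arrays, as were 16.5% of all probes. Another 3 genes were above 0 on all 3 arrays, as were 18.1% of all probes. Of these, Usp9x had the highest mean, at 0.26 ± 0.22 (adjusted p = 0.564).

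**Figure D2:**
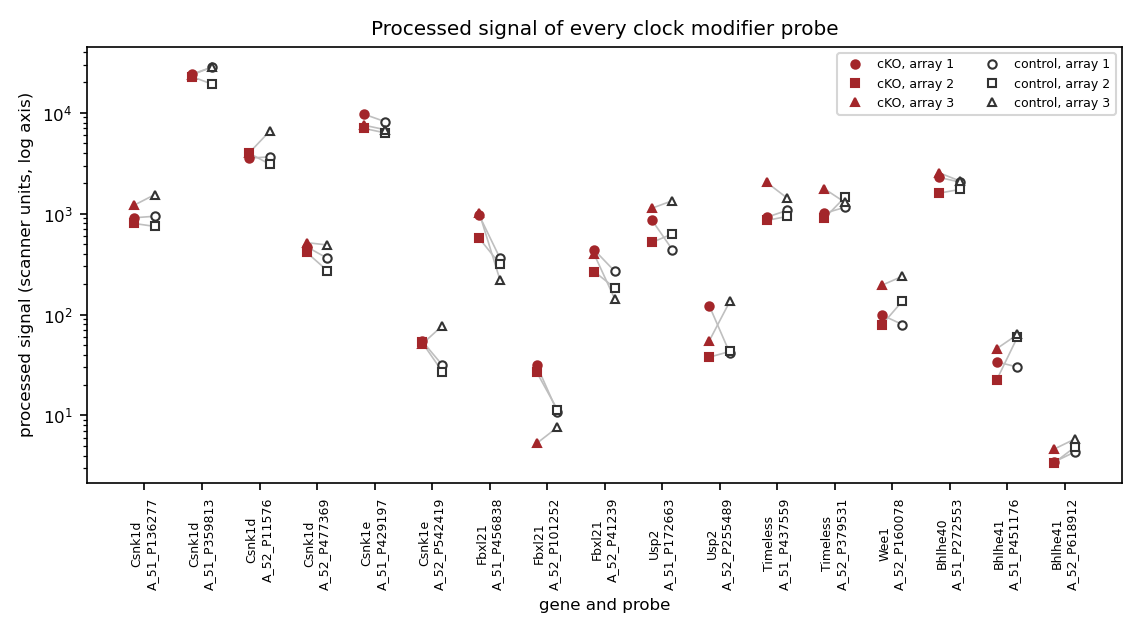
Processed signal of each of the 17 clock modifier probes in scanner units on a log axis, with filled symbols for cKO and open symbols for control pools, and a grey line joining the 2 pools of an array. For Fbxl21 A_51_P456838, the cKO pools lie between 570 and 1022 units and the control pools between 222 and 364 units. The second Bhlhe41 probe lies under 6 units in both genotypes.

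No casein kinase probe passed the threshold. Csnk1d, on chromosome 11, had 4 probes of which 2 had a mean above 0 and 2 below, and 0 passed the threshold. The first 30 bases of each are shown because the probes read different stretches of the gene's transcripts and gave different means. The fourth one carries the accession of another transcript variant than the first 3.
Csnk1d A_52_P11576: gttactctgcaagcattttagggtgcagag
Csnk1d A_51_P136277: gatgagaactctcctttttgctgtgaaggg
Csnk1d A_51_P359813: ctgagctgtgcgtttgtactaccactgtat
Csnk1d A_52_P477369: tgcagatgatgctgagcgggaacgccggga

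Probe A_52_P11576 gave Csnk1d processed signals of 3550, 3974 and 4006 in cKO ovaries, against 3660, 3090 and 6592 in control ovaries. The genotypes overlapped, and the control pool of array 3 stood above the other pools. Its log2 ratios were -0.23, 0.23 and -0.84, with a mean of -0.28 ± 0.53 (n = 3), a 95% interval of -0.90 to 0.34 and an adjusted p of 0.719. Without array 2 that mean was -0.53 and without array 3 it was -0.00. Probe A_51_P136277 had ratios of -0.05, 0.07 and -0.41 and a mean of -0.13 ± 0.25 (adjusted p = 0.810). Its Csnk1d signals were 911, 800 and 1214 units in cKO ovaries and 943, 747 and 1546 units in control ovaries, again with overlap.

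The other 2 probes of Csnk1d had means above 0. Probe A_51_P359813 gave 24142, 22893 and 23649 units in cKO ovaries, against 28321, 19171 and 28569 units in control ovaries. Log2 ratios of -0.01, 0.44 and -0.07 were found, with a mean of 0.12 ± 0.28 (adjusted p = 0.836). Probe A_52_P477369, of transcript variant 1 by its accession, gave 470, 413 and 516 units in cKO ovaries, against 361, 272 and 489 units in control ovaries. On each array the cKO signal was the higher. Its log2 ratios were 0.31, 0.44 and -0.01, with a mean of 0.25 ± 0.23 and a 95% interval of -0.13 to 0.62 (adjusted p = 0.585). All 4 Csnk1d probes were highest on array 2 and lowest on array 3. The highest and the lowest probe differed by 0.54, 0.37 and 0.83 on arrays 1, 2 and 3.

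Csnk1e, on chromosome 15, had log2 ratios above 0 on all 3 arrays on one probe and mixed signs on the other. Probe A_51_P429197 gave Csnk1e signals of 9679, 6994 and 7531 units in cKO ovaries, against 8180, 6330 and 6805 units in control ovaries. The cKO pool was the brighter on each array, although the ranges overlapped. This gave log2 ratios of 0.40, 0.24 and 0.21, with a mean of 0.28 ± 0.10 (n = 3), a 1.21-fold difference with a log2 interval of -0.03 to 0.59 and an adjusted p of 0.468. Probe A_52_P542419, well above background in control ovaries on 2 of 3 arrays, had ratios of 0.11, 0.25 and -0.19 (mean 0.06 ± 0.22, adjusted p = 0.926). Its mean was 0.31 with plain background subtraction and 0.39 in the scanner's ratios. Its Csnk1e signals were 55.3, 53.6 and 50.5 units in cKO ovaries and 31.5, 27.2 and 77.6 units in control ovaries.

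Of the other kinases and phosphatases that act on clock proteins, 0 of 17 genes tested passed the threshold, with a median of -0.05. At an unadjusted p under 0.05, 0 were higher and 2 lower, against 5.74% and 5.84% of all probes tested. The 2 lower ones were Ppp5c, a protein phosphatase that acts on casein kinase 1 epsilon, at -0.41 ± 0.22 (adjusted p = 0.396), and Csnk2b, the regulatory subunit of casein kinase 2, at -0.34 ± 0.11 (adjusted p = 0.402). A second probe of Ppp5c had a mean of opposite sign, 0.28. Csnk1a1, the casein kinase 1 alpha gene, was read by 5 probes with means between -0.03 and 0.49, and none passed.

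Usp2 was higher in the cKO pool of array 1 alone, so its mean rests on that array. USP2 is a ubiquitin protease with BMAL1, PER1 and CRY1 among its substrates, and the gene lies on chromosome 9. Its 2 probes carry 1 accession and begin differently, as their first 30 bases show.
Usp2 A_51_P172663: agctcacaacatttgtgaatttcccactaa
Usp2 A_52_P255489: cagcagtaaaagagggaagtgggtaaatgg

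Probe A_51_P172663 gave Usp2 signals of 869, 518 and 1130 units in cKO ovaries, against 439, 630 and 1345 units in control ovaries. Only on array 1 was the cKO pool the brighter one. The log2 ratios were 1.00, -0.01 and -0.01, with a mean of 0.32 ± 0.58 (n = 3), a 95% interval of -0.34 to 0.98 and an adjusted p of 0.695. Without array 1, the mean was -0.01. Probe A_52_P255489 gave 123, 37.8 and 54.7 units in cKO ovaries, against 41.3, 43.1 and 135 units in control ovaries. Its log2 ratios were 0.50, -0.00 and -0.38, with a mean of 0.04 ± 0.44 (adjusted p = 0.968), and without array 1 the mean was -0.19. Usp2 A_52_P255489 thus ran from highest on array 1 to lowest on array 3. A_51_P172663 did so only by a small margin, with -0.0118 on array 2 against -0.0147 on array 3. In the scanner's ratios arrays 2 and 3 stood the other way round, at -0.28 and -0.25.

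Array 1 is the one on a slide of its own, and 12 of all 24 list medians were highest there, those of 2 epithelial marker lists among them. The 6 ovarian surface epithelium markers had median log2 ratios of 0.89, -0.46 and -0.80 on arrays 1, 2 and 3, and the 4 tested oviduct epithelium markers 1.26, -0.50 and 0.13. The summed signal of the surface epithelium list ranged from 78272 to 215102 units in cKO pools and from 94685 to 169716 units in control pools. That of the oviduct list ranged from 3198 to 10928 units in cKO pools and from 3909 to 11153 units in control pools, and Pax8, which defines that epithelium, was not tested. These lists were picked for display after their values were seen, and their part in the Usp2 ratio was not tested. Of the 24 list medians, 7 fell from array 1 over array 2 to array 3, the order of Usp2 A_52_P255489. They were those of the surface epithelium, endothelial, macrophage, adipocyte, REV-ERB and ROR, PAR bZIP and other clock ubiquitin ligase lists. The oviduct list was not among them. For Usp2 A_51_P172663, that order rests on the small margin given above. Among 18 other USP proteases, 0 passed the threshold, with a median of 0.05. Usp10 had the lowest mean, at -0.53 ± 0.15 (adjusted p = 0.301), and Usp15 the highest, at 0.43 ± 0.29 (adjusted p = 0.424), although the 5 other probes of Usp15 had means from -0.59 to 0.01.

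Timeless, on chromosome 10, was read by 2 probes whose means had opposite signs. In mammals TIMELESS works with TIPIN at the replication fork and binds PER and CRY proteins. The first 30 bases of its probes are shown because the sign of the mean turned on which of them was read.
Timeless A_51_P437559: gtcttcggaagaacttttaagagtaaaatt
Timeless A_52_P379531: agaactattcctggcgctctttcgaaagtt

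Probe A_51_P437559 gave Timeless signals of 921, 856 and 2039 units in cKO ovaries, against 1081, 941 and 1421 units in control ovaries. Both genotypes were brightest on array 3, where alone the cKO pool was the brighter. Its log2 ratios were 0.01, 0.05 and 0.63, with a mean of 0.23 ± 0.35 (n = 3), a 95% interval of -0.23 to 0.69 and an adjusted p of 0.690. This probe was among the 4 above 0 on all 3 arrays, although the scanner's own ratios were -0.23, -0.14 and 0.52. Leaving out 1 array gave means of 0.027 to 0.34, the lowest without array 3. Probe A_52_P379531 gave 1008, 898 and 1769 units in cKO ovaries, against 1156, 1459 and 1295 units in control ovaries. This gave log2 ratios of -0.41, -0.78 and 0.16, with a mean of -0.34 ± 0.47, a 95% interval of -0.91 to 0.22 and an adjusted p of 0.612. Leaving out 1 array gave means of -0.59 without array 3 to -0.13 without array 2. The first probe lay above the second on every array, by 0.42, 0.83 and 0.47, and both were highest on array 3.

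The medians of the DNA replication and mitosis lists were also highest on array 3, though not every gene in them was. Tipin, the partner of Timeless, had log2 ratios of -0.29, -0.64 and 1.01 (mean 0.03 ± 0.87, adjusted p = 0.989). The 14 tested replication fork and checkpoint genes had medians of -0.25, -0.40 and 0.47 on arrays 1, 2 and 3, and the 13 genes of G2/M entry and mitosis -0.54, -0.39 and 0.40. In each list 0 genes passed the threshold. Over the 3 arrays, 3 of the 13 mitotic genes had a mean above 0 and 10 below, beside 13577 and 12852 of all 26429 probes. Plk1, a mitotic kinase that marks WEE1 for breakdown, had the one G2/M ratio below 0 on all arrays, at -0.48 ± 0.27 (adjusted p = 0.371). Cdc25a had the one above 0 on all arrays, at 0.47 ± 0.24 (adjusted p = 0.364), with a second probe at 0.11. Of all 24 list medians, 5 were highest on array 3, those of the granulosa, oocyte and other USP lists besides the replication and mitosis lists. The part of dividing cells in the Timeless ratios was not tested.

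**Figure D3:**
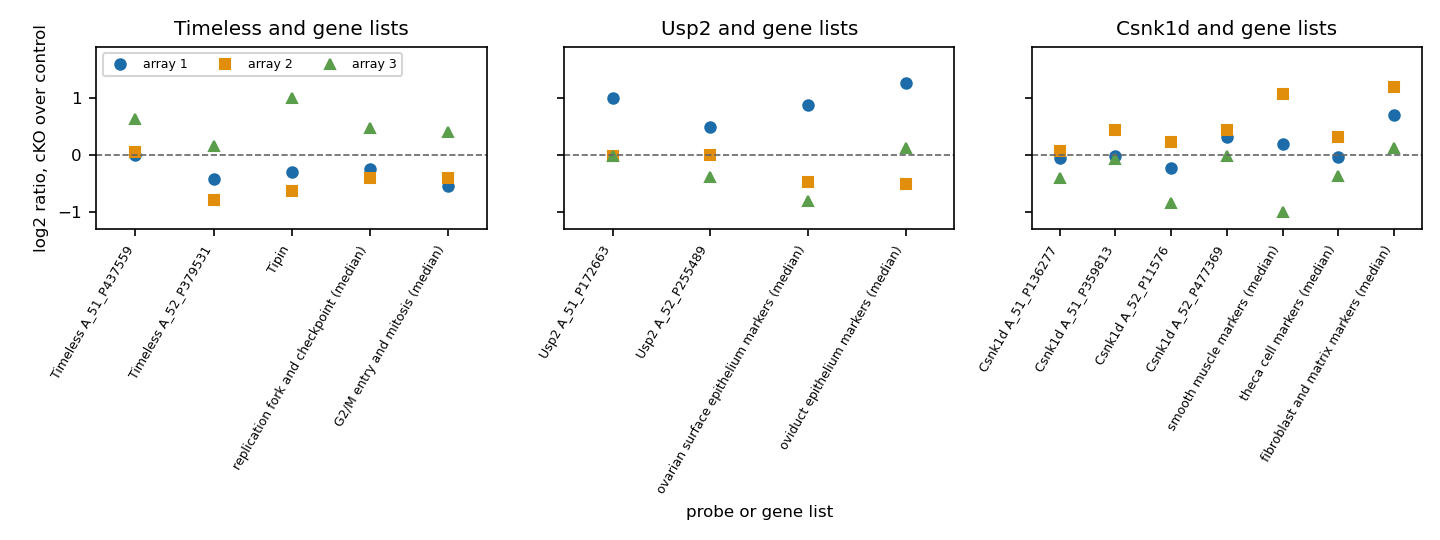
Log2 ratio of cKO over control on each array for the probes of Timeless, Usp2 and Csnk1d (left to right panels), beside the medians of gene lists and the gene Tipin, all on 1 vertical axis. Timeless, Tipin and the replication and mitosis medians stand highest on array 3, Usp2 and both epithelial lists on array 1, and Csnk1d and the smooth muscle, theca and fibroblast lists on array 2.

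The order of Csnk1d over the arrays, highest on array 2 and lowest on array 3, was shared by 5 of the 24 list medians. Among them, the 6 smooth muscle markers had medians of 0.20, 1.07 and -1.0, the 5 tested theca markers -0.03, 0.32 and -0.36, and the 7 fibroblast markers 0.71, 1.20 and 0.13. The summed smooth muscle signal ranged from 59448 to 128475 units in cKO pools and from 55413 to 132899 units in control pools. These lists, too, were picked after their values were seen, and the part of such cells in the Csnk1d ratios was not tested.

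Wee1, on chromosome 7, had 1 probe and no consistent direction. It gave 99.0, 78.8 and 195 units in cKO ovaries, against 79.6, 136 and 240 units in control ovaries, so that the cKO pool was the brighter on array 1 alone. Probe A_52_P160078 had log2 ratios of 0.18, -0.22 and -0.05, with a mean of -0.03 ± 0.20 (n = 3), a 95% interval of -0.38 to 0.33 and an adjusted p of 0.963. Pkmyt1, the other kinase that holds back CDK1, averaged -0.24 ± 0.32 (adjusted p = 0.656).

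Neither DEC repressor passed the threshold. Bhlhe40, on chromosome 6, gave 2287, 1598 and 2539 units in cKO ovaries, against 2055, 1740 and 2108 units in control ovaries, with overlap. Probe A_51_P272553 had log2 ratios of -0.09, -0.30 and 0.07, with a mean of -0.11 ± 0.18 (n = 3), a 95% interval of -0.46 to 0.24 and an adjusted p of 0.824.

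Bhlhe41, also on chromosome 6, was read close to background. Probe A_51_P451176 gave 34.0, 22.6 and 45.9 units in cKO ovaries, against 30.2, 59.7 and 63.4 units in control ovaries. Across the arrays the log2 ratios were -0.03, -0.33 and -0.15, with a mean of -0.17 ± 0.15 (n = 3), a 95% interval of -0.50 to 0.16 and an adjusted p of 0.675. It was the 1 clock modifier probe below 0 on all 3 arrays, although the scanner's own ratios were 0.17, -1.41 and -0.47. The mean depended on the background correction, at -0.57 in the scanner's ratios, -0.71 with plain subtraction and -0.50 with an offset of 0, and it was -0.09 without array 2. The other probe, A_52_P618912, was not well above background in either genotype on any array, at 3.39 to 5.84 units.

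Among 9 other repressors with a bHLH domain, the HES, HEY and ID genes, 0 passed the threshold, with a median of 0.22. At an unadjusted p under 0.05, 3 were higher and 0 lower, against 5.74% and 5.84% of all probes tested. The 3 were ID genes, whose products block bHLH factors by pairing with them: Id2 averaged 1.19 ± 0.65 (adjusted p = 0.295), Id4 0.55 ± 0.44 (adjusted p = 0.424) and Id3 0.47 ± 0.31 (adjusted p = 0.403), each above 0 on all 3 arrays, as were 18.1% of all probes. A second Id4 probe had a mean of -0.02 and a second Id2 probe one of 0.89. Bhlhe40 and Bhlhe41 are also known as hypoxia targets, and the 12 hypoxia genes had a median of 0.17 with 0 passing the threshold, 7 means above 0 and 5 below. At an unadjusted p under 0.05, 4 were higher and 1 lower, against 5.74% and 5.84% of all probes tested. Adm, the adrenomedullin gene, averaged 2.19 ± 0.05 (adjusted p = 0.0538), and Egln3, a prolyl hydroxylase, 1.65 ± 0.18 (adjusted p = 0.0616). The one lower was Bnip3, a mitophagy gene named after its values were seen, at -0.67 ± 0.27 (adjusted p = 0.288). Beside these, Bhlhe40 averaged -0.11.

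Clock and output genes on the same arrays had both larger and equally small means. Dbp, a PAR bZIP factor driven by E-boxes, averaged -1.43 ± 0.05 (adjusted p = 0.0587), and Nr1d2, which encodes REV-ERB beta, -2.01 ± 0.31 (adjusted p = 0.0652). Wee1 and Usp2, outputs of the same kind in liver, had means of -0.03 for Wee1 and of 0.32 and 0.04 for the Usp2 probes. Per1, Per2 and Ciart, E-box genes taken up here after their values were seen, averaged 0.07 ± 0.53, 0.03 ± 0.04 and -0.32 ± 0.72. Npas2, which can stand in for CLOCK as the partner of BMAL1, averaged 0.55 ± 0.21 (adjusted p = 0.305). The lowest and the highest mean among the 15 clock modifier probes were -0.34 and 0.75.

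**Figure D4:**
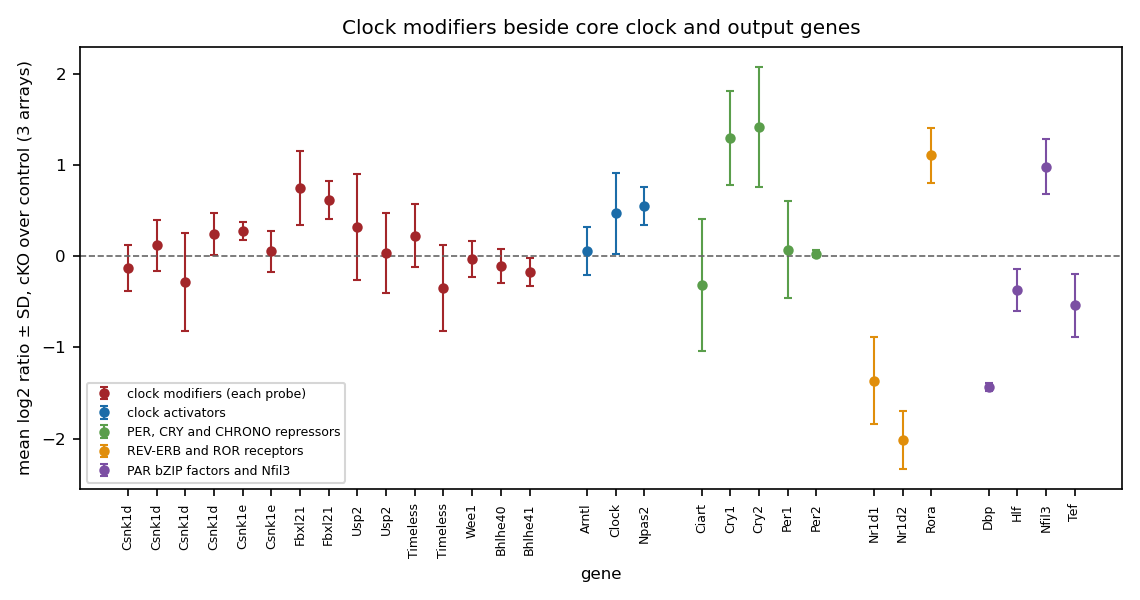
Mean log2 ratio of cKO over control ± SD over 3 arrays (vertical axis) for the 15 clock modifier probes at the left and for 15 of the 16 tested core clock and output genes in 4 groups to their right. The clock modifiers lie between -0.34 and 0.75, while Nr1d2 lies at -2.01, Dbp at -1.43, Per2 at 0.03 and Cry2 at 1.42. Another tested probe of Cry2, which is not drawn, had a mean of only 0.11.

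Likeness over the arrays was measured as the root mean square of the differences in log2 ratio, over 3 arrays and against 16 clock genes, as a description. For Fbxl21 A_52_P41239 the nearest were Npas2, at 0.23, and Clock, at 0.25, and for Fbxl21 A_51_P456838 Clock, at 0.32, and Npas2, at 0.41. Timeless A_52_P379531 was nearest to Hlf, at 0.21. Wee1, Bhlhe40 and Bhlhe41 were each nearest to Per2, at 0.18, 0.19 and 0.24, a gene whose own ratios lay near 0 (mean 0.03 ± 0.04, and -0.02 on a second Per2 probe).

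Promoter windows of RefSeq, from 250 bases before to 50 after a transcript's start on GRCm38.p6, were searched on both strands for 4 clock motifs. The table held 8 windows of 5 members: 4 of Csnk1e and 1 each of Fbxl21, Timeless, Usp2 and Bhlhe41. The E-box CACGTG was in 1 window, that of Bhlhe41, and in 7.15% of all 32851 windows. The D-box TTATGTAA, which PAR bZIP factors bind, was in 1 window, that of Timeless, and in 0.938% of all windows. The variant E-box CACGTT (4.68% of all windows) and the motif TAGGTCA of ROR and REV-ERB receptors (2.61%) were in 0 of the 8. No member's window held more than 1 of these motifs, so none overlapped. The 2 stretches with a match are shown with the motif in capitals, the first at chr6:145865508-145865633 on the minus strand and the second at chr10:128237849-128237976 on the plus strand.
Bhlhe41: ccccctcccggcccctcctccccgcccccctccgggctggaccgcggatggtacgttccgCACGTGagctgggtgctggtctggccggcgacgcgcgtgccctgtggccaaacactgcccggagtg
Timeless: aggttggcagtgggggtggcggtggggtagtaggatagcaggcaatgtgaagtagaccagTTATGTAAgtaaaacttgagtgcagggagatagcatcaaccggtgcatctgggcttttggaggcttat

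The E-box of Bhlhe41 began 153 bases before the start of its transcript, and the D-box of Timeless 157 bases before a transcript start within the gene. The Timeless window, at 128237816 to 128238115, lies inside the gene, which spans 128232063 to 128252941. The Usp2 and Csnk1e windows also lie inside the spans of their genes. The upstream ends of Timeless, Usp2 and Csnk1e were thus not searched. Bhlhe41 had a mean log2 ratio of -0.17 and Timeless means of 0.23 and -0.34, none past the threshold. Fbxl21, with the highest means, had none of the 4 motifs in its window, which says only that these letters are not in it. A match in a window is a description of its letters and was not tested as a site.

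**Figure D5:**
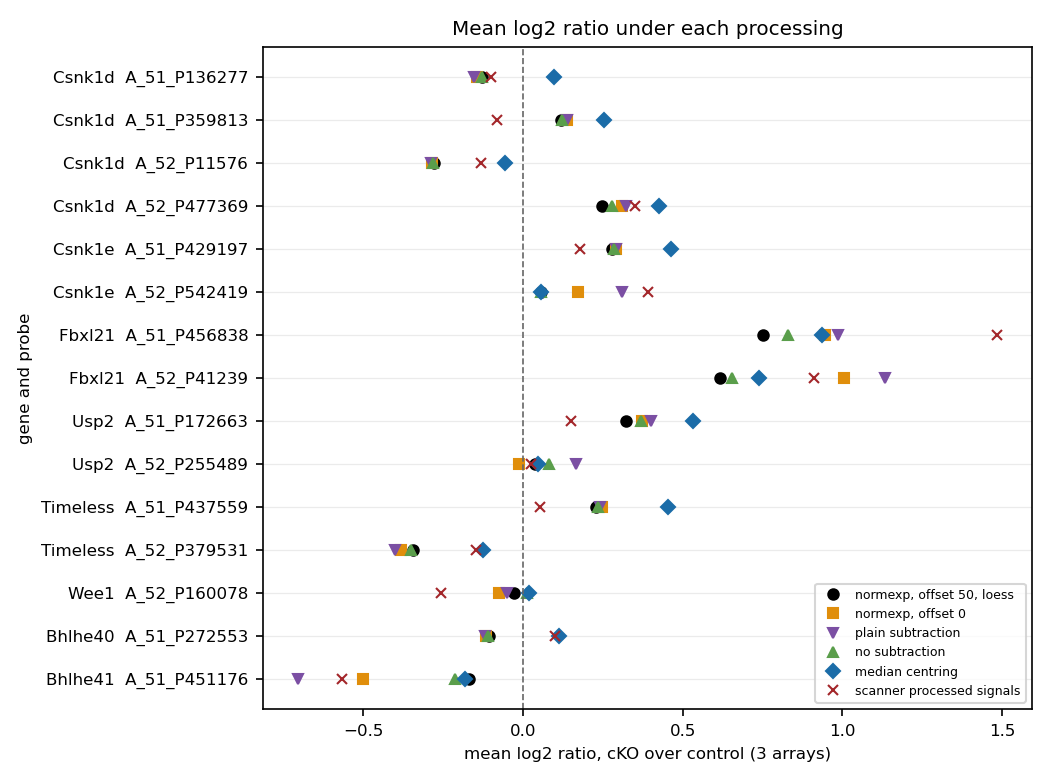
Mean log2 ratio of cKO over control over 3 arrays (horizontal axis) for each of the 15 clock modifier probes under 6 ways of correcting background and normalising, a symbol for each. Both Fbxl21 probes stay right of 0, A_51_P456838 between 0.75 and 1.48 and A_52_P41239 between 0.62 and 1.13, while Csnk1d A_51_P359813, Usp2 A_52_P255489, Wee1 and Bhlhe40 lie on both sides of 0. Csnk1d A_51_P136277 does so through median centring alone, under which the median of the tested probes was 0.12.

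Across these ways of processing, Fbxl21 kept the highest means of the clock modifiers, and 0 of the 15 probes passed the threshold under any. With median centring, the median of the tested probes was 0.12. Relative to that median, the Fbxl21 probes lay at 0.82 and 0.62, Csnk1e A_51_P429197 at 0.34, Bhlhe40 at -0.00, Csnk1d A_51_P136277 at -0.02 and Wee1 at -0.10. Csnk1e A_52_P542419 lay at -0.06 and Usp2 A_52_P255489 at -0.07, below that median although their means without centring were above 0. On simulated arrays of 26429 probes with the spread of these, the same test recovered 5 of 50 probes with a log2 change of 1, 23 of 50 with a change of 2 and 38 of 50 with a change of 3. In this simulation, most changes of the smallest of these sizes, which is larger than the Fbxl21 means, thus went uncalled with 3 arrays. Of the 50 with a change of 1, 46 had an unadjusted limma p under 0.05, and 4 unchanged probes were called. The simulated noise was independent between arrays and between probes, which real noise need not be. It took each probe's SD over the 3 arrays as the true SD, so the error of that estimate entered again. These counts are therefore a rough guide, and recovery in the data may differ from them.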

How the data were processed

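Intensity values of spots and their local background stand in the deposited files as Agilent Feature Extraction 9.1.3.1 read them from the scans, according to the headers. The log10 ratios that the authors deposited divide the processed red signal by the green one, hence control by cKO, and the series' value table repeats them with a largest difference of 0 and a median of 0 on each array. They were turned to log2 cKO over control for the scanner's ratios.

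Mean signals were background-corrected by normexp (offset 50, which pulls dim ratios toward 0) and normalised within arrays by loess in limma 3.58.1 under R 4.3.3. Control spots had weight 0, and 13, 4 and 0 outlier spots on arrays 1 to 3 were left out. No member spot was saturated, and 8 tested probes lacked 1 array. Between 62.9% and 69.1% of probes were well above background. Probes so in 1 genotype on all 3 arrays were tested one by one (lmFit, eBayes, intercept only, two-sided), with Benjamini-Hochberg adjustment over 26429 probes. The p-values reflect the spread between 3 pools per genotype, and the number of arrays limits precision. The test was checked on simulated data. Each gene of a list was read by its brightest probe. The 24 lists held 215 genes, of which 207 were tested and 1, Star, was called.

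The members and lists were chosen with earlier results of these data known. Named genes are the members, their partners and, per list, up to 3 genes of largest mean with 1 sign on all arrays; Csnk2b was named because the count it belongs to is of 2, and Arntl, Clock, Hlf and Per2 as nearest clock genes. On arrays 2 and 3, 1 genotype label numbers the Cre; titles set the groups. Gene names and promoters come from RefSeq tables of GRCm38.p6, with 24844 probes matched by accession, 6045 by symbol and 1810 by synonym, and 8475 left with the file's name. Alternatives covered background correction, scaling, the filter, probe choice, slide and single arrays. A result on some genes is not reported here.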

Additional observations from a re-analysis of the deposited data

How the results depend on the processing

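Of the clock modifier probes, 0 passed the threshold under any of the 14 alternatives. The 2 other filters and the choice of 1 probe per gene leave each mean as it was, and arrays 2 and 3 alone are the same data as leaving out array 1, so fewer than 14 bear on a mean. The Fbxl21 means stayed above 0, A_51_P456838 between 0.54 and 1.48 and A_52_P41239 between 0.51 and 1.13. The smallest adjusted p of a clock modifier probe was 0.112, for Fbxl21 A_52_P41239 without array 3. The mean of Wee1 A_52_P160078 was 0.012 without background subtraction, 0.020 with median centring and 0.022 with the slide as a block. Leaving out 1 array at a time gave Wee1 -0.13 to 0.065. Usp2 A_52_P255489 was at -0.012 with an offset of 0. Using arrays 2 and 3 alone, which share a slide, it was at -0.19 and Usp2 A_51_P172663 at -0.013. With 1 array left out, these probes ranged from -0.19 to 0.25 and from -0.013 to 0.49. Bhlhe40 was at 0.11 with median centring and 0.10 in the scanner's ratios. Csnk1d A_51_P136277 was at 0.10 with median centring, and at -0.23 to 0.011 with 1 array left out. Csnk1d A_51_P359813 was at -0.082 in the scanner's ratios, and at -0.042 to 0.22 with 1 array left out. Csnk1e A_52_P542419 was at -0.039 to 0.18 with 1 array left out. With median centring, the median of the tested probes was 0.12, and relative to it Wee1, Bhlhe40 and Csnk1d A_51_P136277 stayed below 0, at -0.098, -0.0046 and -0.022. The count of all probes called, 1 of 26429, was 53 without background subtraction, 91 with plain subtraction, 77 with an offset of 0, 59 in the scanner's ratios, 50 when both genotypes had to be well above background and 31 with 1 probe per gene, of 17858. It was 0 with median centring, with scaled arrays, without a filter, with a slide block and on arrays 2 and 3 alone, while limma's unadjusted p was under 0.05 for 3949, 3192, 4452, 1499 and 1008 probes. Leaving out 1 array gave 0 to 21, the 21 without array 3. List genes called were 1 at first, and 4, 4, 4, 3, 5 and 2 under the 6 alternatives that called more probes. They were 0 under the 5 that called none, and 0 to 3 with an array left out. The cause of these changes was not tested. Each ratio already pairs the cKO and control pools of its array, so the main fit was a paired one, with no further pairing to add as a block. Signal over background, with a median of 2.42 to 2.80 in cKO and 1.80 to 2.36 in control channels, limits what the dim Bhlhe41, Wee1 and second Csnk1e and Usp2 probes can show.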
